A study of Mus musculus with 8 samples.

Results

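Siglec receptors and the SHP phosphatases that act downstream of them were followed by RNA sequencing in mouse dendritic cells with and without knockdown of Suclg2. The genes were set by name: the receptors Siglece, Siglec1, Siglecg, Siglech and Cd33, and the phosphatases Ptpn6 and Ptpn11. The group was picked because Siglece was higher in the si-Suclg2 samples, so its difference is described here and not tested; the others were included by family or function. Of the 7 named genes, 5 were analysed among 15465 genes in all, and all 5 passed the filter of a mean of 1 FPKM in at least one group (FPKM, fragments per kilobase of transcript scaled to sequencing depth). Siglecg and Siglech had no values among these 15465 genes and were not analysed here.

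The cells came from bone marrow of wild-type C57/BL6 mice, grown for 6 days with GM-CSF and IL-4 and then exposed to LPS for 24 hours. CD11c+ cells were taken with magnetic beads and cocultured with spleen stroma for 9 days to give the cells named diffDC, the regulatory dendritic cells of the study's title. These were transfected with a control siRNA (si-nc, 4 samples) or an siRNA against Suclg2 (si-Suclg2, 4 samples), so that all 8 samples share the LPS, the stroma and the transfection. The siRNA lowers the mRNA in part only, the sources used here name no second siRNA, and they do not say whether replicates came from separate animals or cultures, so p-values measure the spread between these samples.

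Siglecs are cell surface lectins that bind sialic acid, the sugar that caps many glycans of the cell's own surface. Most CD33-related Siglecs carry tyrosine motifs in their cytoplasmic tails, called ITIMs, which Src-family kinases phosphorylate and which then recruit the phosphatases SHP-1 (gene Ptpn6) and SHP-2 (gene Ptpn11). In macrophages and dendritic cells this route is known for damping signals from activating and Toll-like receptors.

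Suclg2 itself was at 4.68, 4.69, 4.56 and 4.43 FPKM in si-nc samples 1 to 4 and at 2.23, 2.30, 2.76 and 2.61 FPKM in si-Suclg2 samples 1 to 4. The groups did not overlap, and 53.9% of the mean level remained (two-sided exact permutation test, p = 0.0286, the smallest that 4 against 4 samples allow). The columns summed to between 506241 and 539290 FPKM, and read depth is not given in the sources used here. Samples with numbers 1 and 2 resembled each other in both groups, as did those with numbers 3 and 4, and values are therefore also given by number. The cells' labelled type was checked by markers. Macrophage and monocyte genes were abundant (12 of 12 found; summed level 27810 to 35010 FPKM in si-nc samples, 22480 to 27220 FPKM in si-Suclg2 samples). Of the conventional dendritic cell genes 7 of 10 were found, with a summed level of 35.6 to 44.6 and 22.5 to 24.8 FPKM. Flt3, Zbtb46 and Clec9a were under 1 FPKM in every sample, and the other 4 were tested. Itgax, the CD11c gene, fell from 20.2 ± 2.84 to 12.6 ± 0.958 FPKM (SD, n = 4 each, limma adjusted p = 0.00127). Clec10a fell from 12.6 ± 4.62 to 4.185 ± 0.136 FPKM (limma adjusted p = 0.00141). Ccr7 and Batf3 did not pass, and 14.9% of all genes tested were lower. The 10 spleen stroma markers summed to 12.3 to 28.9 and 9.56 to 21.6 FPKM and none of the 5 tested passed (4 were lower with the replicate block, 2 without sample 3 of si-nc and 3 without sample 1 of si-Suclg2). In bulk RNA, fewer cells of a type and less RNA per cell cannot be told apart.

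Siglece and Cd33 lie in the same CD33-related Siglec cluster of chromosome 7 and are 111.5 kb apart (RefSeq, GRCm38.p6; Siglece chr7:43648882-43672044, Cd33 chr7:43527399-43537424), yet their levels differed between the groups in opposite directions. For this reason the 250 bases before the start of each gene, as given in the RefSeq promoter table of that build, are shown. Both stretches are on the minus strand and lie within the annotated span of the gene, because the table's start is not the outermost one. Capitals mark matches to any of 6 motifs searched on both strands.
Siglece promoter: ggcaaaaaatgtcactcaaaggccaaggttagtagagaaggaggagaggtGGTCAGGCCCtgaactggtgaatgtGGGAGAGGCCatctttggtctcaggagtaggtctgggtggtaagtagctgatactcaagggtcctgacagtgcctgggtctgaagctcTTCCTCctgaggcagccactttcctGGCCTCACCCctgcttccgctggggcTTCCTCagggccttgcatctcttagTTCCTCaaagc
Cd33 promoter: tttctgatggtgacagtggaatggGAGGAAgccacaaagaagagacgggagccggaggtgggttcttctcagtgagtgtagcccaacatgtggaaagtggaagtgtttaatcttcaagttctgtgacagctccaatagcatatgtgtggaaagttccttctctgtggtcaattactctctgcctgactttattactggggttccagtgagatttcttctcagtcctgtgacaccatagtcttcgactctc
These stretches are chr7:43660162-43660411 for Siglece and chr7:43533172-43533421 for Cd33. The Siglece stretch held 3 matches to GAGGAA, the core bound by the myeloid factor PU.1, beginning 87, 36 and 11 bases before the start, and 3 matches to the NF-kB pattern, GGG and CC around 5 free bases, beginning 200, 175 and 62 bases before it. The Cd33 stretch held 1 match to GAGGAA, 226 bases before its start, and 0 to the NF-kB pattern. No capitals of one motif overlapped those of the other. At least 1 GAGGAA match was present in 23.3% of all 32851 promoter entries of this length and 3 or more in 0.429%, against 45.8% and 10.7% for the NF-kB pattern. The AP-1 pattern TGANTCA, the C/EBP pattern TTGCNNAA, the interferon-response pattern, GAAA on each side of 2 free bases, and the STAT pattern TTCNNNGAA had 0 matches in both stretches and were present in 6.75%, 9.56%, 2.98% and 7.02% of entries. Among the other members, the Ptpn6 stretch of this length held 3 matches to the NF-kB pattern and 0 to GAGGAA. The Ptpn11 stretch held 1 match to each. Such matches describe letters and are no evidence of binding.

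Siglece, an ITIM-bearing inhibitory receptor of neutrophils, monocytes and macrophages, was low in control cells and second only to Siglec1 among the Siglec genes measured after knockdown. It was at 1.96, 2.49, 3.08 and 3.66 FPKM in si-nc samples 1 to 4 and at 33.74, 34.55, 36.1 and 44.3 FPKM in si-Suclg2 samples 1 to 4. Every si-Suclg2 sample was above every si-nc sample, with a wide gap between the groups. The means were 2.80 ± 0.735 and 37.2 ± 4.85 FPKM (SD, n = 4 each), a 13.3-fold ratio, and the log2 difference on the log2(FPKM + 1) scale was 3.34 ± 0.138 (SE). With a pseudocount of 0.1 in place of 1 that difference was 3.71. The ratio of si-Suclg2 to si-nc was 17.2, 13.9, 11.7 and 12.1 for replicate numbers 1 to 4, and it was highest for number 1, where the control level was lowest. Among 10176 genes tested its difference ranked 3, after Slc13a3 and Marco (3.44) and before Saa3 (2.95). In si-nc cells 43.9% of all genes in the table had a lower mean than Siglece, and in si-Suclg2 cells 86.7%.

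**Figure D1:**
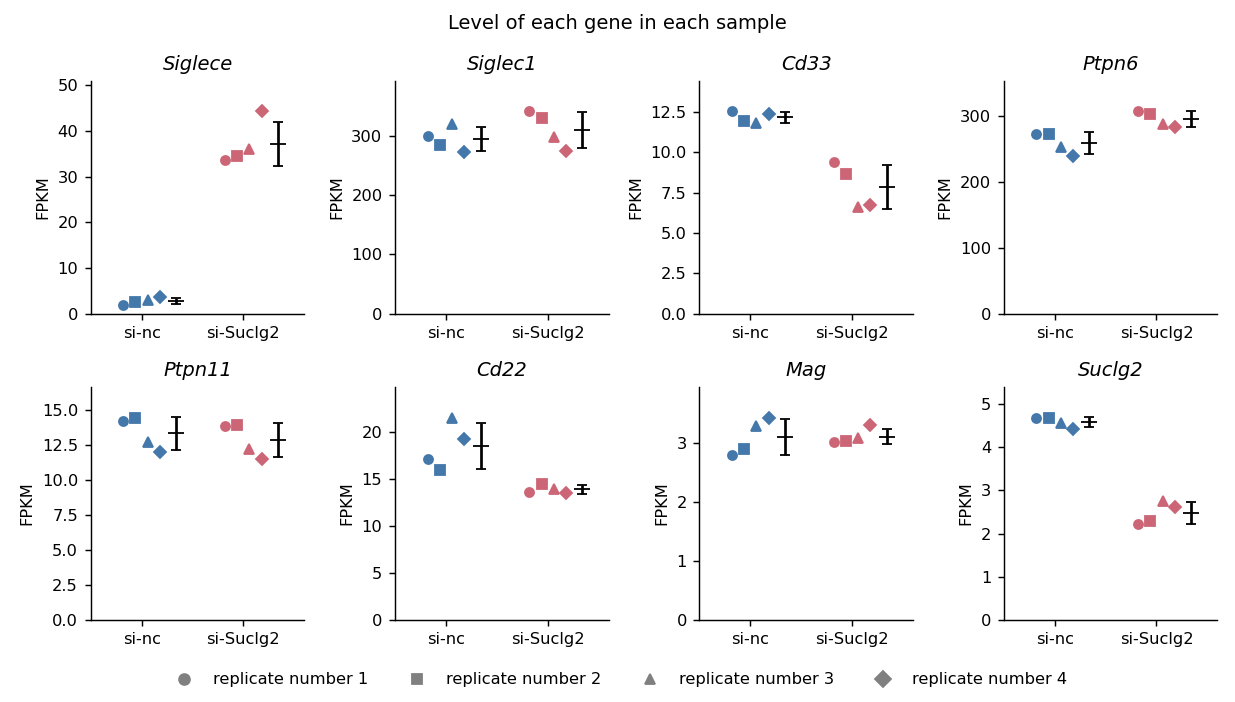
FPKM (vertical axes, from 0) of 8 genes in each of the 4 si-nc (blue) and 4 si-Suclg2 (red) samples, with symbols for the replicate number and bars for mean ± SD. Siglece lies between 1.96 and 3.66 FPKM with si-nc and between 33.74 and 44.3 FPKM with si-Suclg2, whereas the ranges of Siglec1, Ptpn11 and Mag overlap.

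Markers of cells known to carry Siglece were read beside this difference. Of 10 neutrophil markers 8 were found, and 6 of these, including S100a9, Ly6g, Mpo and Camp, stayed under 1 FPKM in every sample. The summed neutrophil list was at 92.9 to 125.6 FPKM in si-nc samples and at 87.8 to 96.7 FPKM in si-Suclg2 samples, of which Csf3r, the receptor for the granulocyte growth factor G-CSF, made up 105.2 ± 15.9 and 88.6 ± 3.37 FPKM (SD, n = 4 each). S100a8, a calprotectin subunit gene and the other neutrophil marker above the filter, rose from 1.18 ± 0.409 to 2.27 ± 0.723 FPKM with overlapping groups (SD, n = 4 each; limma adjusted p = 0.0346). Its call was lost when sample 1, 2 or 3 of si-nc, or sample 3 or 4 of si-Suclg2, was left out, and with no filter. Of the 12 macrophage and monocyte genes 3 rose (Fcgr1, Adgre1 and Ly6c2) and 5 fell (Apoe, Lyz2, Csf1r, Cd68 and Ccr2), beside 12.0% higher and 14.9% lower over all genes tested. Falls numbered 2 with no filter, and when sample 3 or 4 of si-nc, or sample 1 or 2 of si-Suclg2, was left out. They numbered 3 after trimmed-mean scaling, and 4 without sample 1 of si-nc or sample 3 of si-Suclg2. With numbers 1 and 2 averaged, and 3 and 4 likewise, 2 rose and 0 fell. Ly6c2, a marker of inflammatory monocytes, went from 202.7 ± 43.6 to 391.2 ± 124.5 FPKM (SD, n = 4 each; limma adjusted p = 0.0155). Ccr2, a chemokine receptor of the same monocytes, fell from 28.3 ± 6.39 to 19.3 ± 3.25 FPKM with overlapping groups (SD, n = 4 each; limma adjusted p = 0.0387). This adjusted p was the largest of the 5 falls. The part of such cells in the Siglece difference was not tested.

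The genes whose profile over the 8 samples was most like that of Siglece were Marco, Saa3, Susd2, Tarm1 and Gm15056. Likeness was the root mean square difference between log2(FPKM + 1) profiles, each centred on its own mean, over 10171 other genes. It was 0.175 for Marco, a scavenger receptor that takes up bacteria and particles, and 0.243 for Saa3, an acute-phase protein gene. Susd2 (0.336), Tarm1 (0.525), a receptor of myeloid cells, and Gm15056 (0.546) followed. Marco was at 18.47 to 25.49 FPKM with si-nc and at 217.64 to 254.88 FPKM with si-Suclg2. Tarm1 was at 2.78 to 4.21 and at 18.06 to 26.47 FPKM. As these genes were chosen by likeness, no test is attached to their differences. The profiles were not scaled to equal spread, so likeness depends largely on the size of the difference between the groups. Marco, Saa3, Susd2 and Gm15056 ranked 2, 4, 5 and 6 by that difference among the genes tested.

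Siglec1 (chr2:131067801-131086778), known as sialoadhesin or CD169, is an adhesion receptor of macrophages that lacks an ITIM. It was the most abundant of the 6 Siglec genes measured, at 299.62, 284.59, 320.23 and 272.45 FPKM in si-nc samples 1 to 4 and at 341.31, 329.37, 297.57 and 274.26 FPKM in si-Suclg2 samples 1 to 4. The groups overlapped, with si-Suclg2 samples 1 and 2 above the highest si-nc sample. The means were 294.2 ± 20.6 and 310.6 ± 30.5 FPKM (SD, n = 4 each), and the log2 difference of 0.075 ± 0.077 (SE; 95% interval -0.098 to 0.25) did not pass (limma adjusted p = 0.520). The ratio was 1.14 and 1.16 for replicate numbers 1 and 2 and 0.929 and 1.01 for numbers 3 and 4. Numbers 1 and 2 alone gave a log2 difference of 0.20 (limma adjusted p = 0.00599), and numbers 3 and 4 alone gave -0.048 (limma adjusted p = 0.662); the difference between these estimates was not tested.

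Cd33, a sialic acid receptor of myeloid cells, fell. It was at 12.53, 11.94, 11.81 and 12.38 FPKM in si-nc samples 1 to 4 and at 9.39, 8.65, 6.60 and 6.76 FPKM in si-Suclg2 samples 1 to 4. The control samples were tightly grouped, and every si-Suclg2 sample lay below them. The means were 12.2 ± 0.345 and 7.85 ± 1.39 FPKM (SD, n = 4 each), and the log2 difference was -0.59 ± 0.0995 (SE; 95% interval -0.81 to -0.36; limma adjusted p = 0.00225). The fall was smaller for replicate numbers 1 and 2, with ratios of 0.749 and 0.725, than for numbers 3 and 4, with 0.559 and 0.546. With means of numbers 1 and 2 and of 3 and 4 as replicates, an alternative chosen after seeing the data, the difference was the same size and the limma adjusted p was 0.105.

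Of the other Siglec genes on the list, Cd22, Mag and Siglec15 had values. Cd22, best known as an inhibitory receptor of B cells, was at 17.13, 15.93, 21.52 and 19.21 FPKM with si-nc and at 13.64, 14.49, 13.89 and 13.44 FPKM with si-Suclg2. It fell, with no overlap, by 0.38 ± 0.083 on the log2 scale (SE; limma adjusted p = 0.00822; 0.155 with the means of pairs of numbers). Of 7 B cell markers, Cd22 among them, 4 were found, and Ms4a1, Cd79a and Pax5 stayed under 1 FPKM in every sample. Mag, the myelin-associated glycoprotein and neighbour of Cd22 at 18.8 kb, was at 2.79 to 3.43 FPKM with si-nc and at 3.02 to 3.30 FPKM with si-Suclg2 (log2 difference 0.01 ± 0.068 SE; limma adjusted p = 0.969). Siglec15, a receptor of osteoclasts, reached at most 0.06 FPKM and was not tested.

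**Figure D2:**
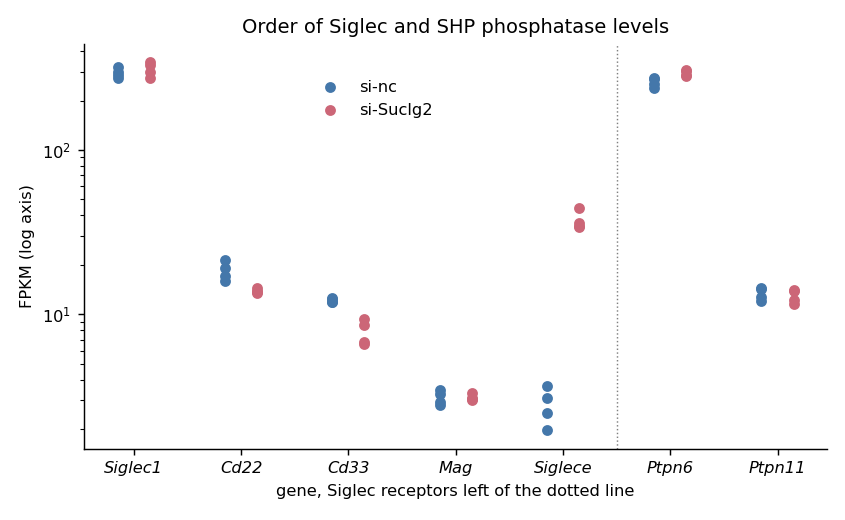
FPKM on a log axis for 5 Siglec genes and, right of the dotted line, the phosphatase genes Ptpn6 and Ptpn11, with 1 point per sample (blue si-nc, red si-Suclg2; 4 each). Siglece shares the lowest place with Mag in si-nc and stands second to Siglec1 in si-Suclg2, at 33.74 to 44.3 FPKM.

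FPKM is scaled by length and so allows the levels of the receptors to be ranked. In si-nc cells the order was Siglec1, Cd22, Cd33, and then Mag and Siglece, whose ranges overlapped. In si-Suclg2 cells it was Siglec1, Siglece, Cd22, Cd33 and Mag, with no overlap between neighbours. Over the 6 Siglec genes with values, the sum was 330.8 ± 21.7 FPKM in si-nc samples and 372.6 ± 27.6 FPKM in si-Suclg2 samples (SD, n = 4 each). Siglec1 made up 87.6% to 89.7% of it in si-nc samples and 80.2% to 85.1% in si-Suclg2 samples. Siglece made up 0.587% to 1.18% and 8.41% to 12.9%. The level of Siglec1 was 74.4 to 152.9 times that of Siglece in si-nc samples and 6.19 to 10.1 times in si-Suclg2 samples.

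The phosphatase SHP-1, the main partner of ITIM receptors in blood cells, is encoded by Ptpn6 (chr6:124720707-124738709), which was modestly higher after knockdown. It was at 272.76, 271.8, 252.26 and 238.24 FPKM in si-nc samples 1 to 4 and at 306.52, 303.14, 287.51 and 282.88 FPKM in si-Suclg2 samples 1 to 4. The groups did not overlap, and in both groups numbers 3 and 4 were below numbers 1 and 2. The means were 258.8 ± 16.6 and 295.0 ± 11.6 FPKM (SD, n = 4 each), 14.0% apart, and the log2 difference of 0.19 ± 0.055 (SE; 95% interval 0.07 to 0.31) passed (limma adjusted p = 0.0297). The ratios were 1.12, 1.11, 1.14 and 1.19 for numbers 1 to 4. The call was lost when sample 3 or 4 of si-nc, or sample 1 or 2 of si-Suclg2, was left out (limma adjusted p = 0.0648 to 0.0735), after quantile normalization (0.194) and with the means of pairs of numbers (0.324).

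SHP-2, the related phosphatase encoded by Ptpn11 (chr5:121130533-121191397), also acts in growth factor and cytokine signalling in most cell types. Ptpn11 was at 14.2, 14.48, 12.72 and 12 FPKM in si-nc samples 1 to 4 and at 13.85, 13.96, 12.2 and 11.54 FPKM in si-Suclg2 samples 1 to 4. The groups overlapped widely, and the spread lay between numbers 1 and 2 and numbers 3 and 4. The means were 13.4 ± 1.19 and 12.9 ± 1.21 FPKM (SD, n = 4 each), and the log2 difference of -0.048 ± 0.079 (SE; 95% interval -0.23 to 0.13) did not pass (limma adjusted p = 0.703; 0.359 with the replicate number as a block). Within numbers 1 to 4 the ratio was 0.975, 0.964, 0.959 and 0.962. Ptpn6 was 18.8 to 19.9 times as high as Ptpn11 in si-nc samples and 21.7 to 24.5 times as high in si-Suclg2 samples, with no overlap.

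**Figure D3:**
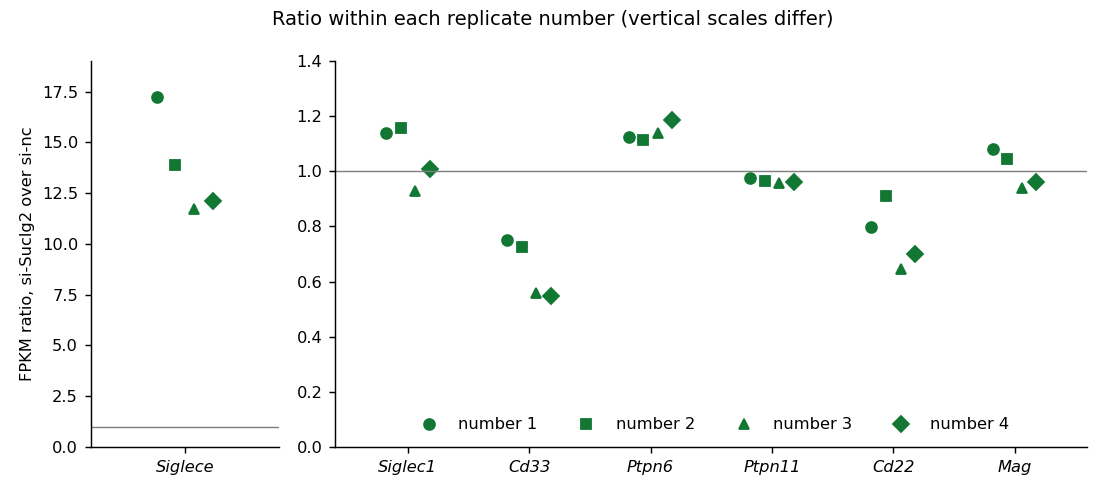
Ratio of FPKM in the si-Suclg2 sample to that in the si-nc sample of the same replicate number (1 to 4, by symbol); the left panel has its own scale for Siglece, and the grey line is a ratio of 1. Siglece lies at 11.7 to 17.2, Ptpn6 at 1.11 to 1.19 and Ptpn11 at 0.959 to 0.975, while Siglec1 and Mag lie on both sides of 1.

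Among the 4 genes of the group other than Siglece, 2 were called at a limma adjusted p under 0.05, 1 higher and 1 lower, against 26.9% of all genes tested (12.0% higher and 14.9% lower; 1221 and 1519 genes, and 1519 and 1172 after trimmed-mean scaling). With the replicate block the same 2 were called, against 40.5% of all genes tested. With Siglece included, 3 of the 5 genes had groups without overlap, against 29.6% of all genes tested. Nothing is read from these shares, because the group was picked with the contrast in view. In the authors' deposited table, DEGseq gave q-values of 4.92e-56 for Siglec1, 2.06e-100 for Ptpn6, 6.39e-46 for Cd33 and 0.0972 for Ptpn11. There, 47.6% of all genes, and 63.3% of the genes tested here, had a q-value under 0.05, and Siglec1 was among them although its samples overlapped.

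**Figure D4:**
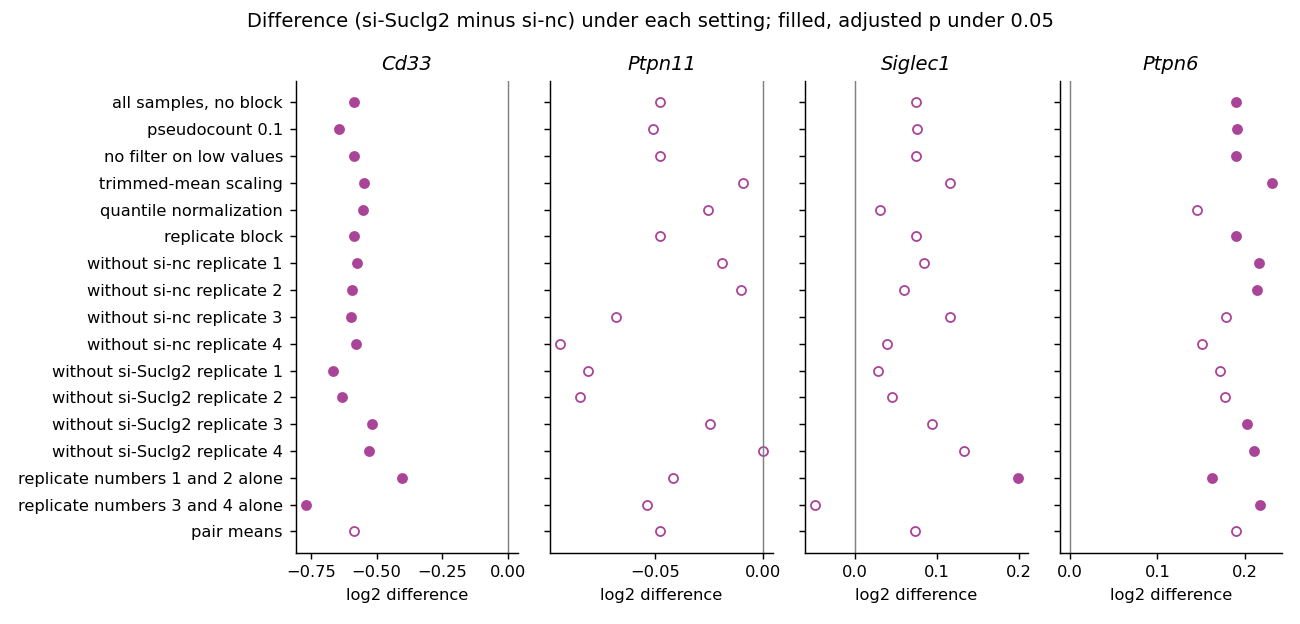
Log2 difference, si-Suclg2 minus si-nc, on the log2(FPKM + pseudocount) scale for 4 genes (each with its own horizontal scale) under each processing setting, with filled points for a limma adjusted p under 0.05. Cd33 stays below 0 and Ptpn6 above 0 under every setting shown, and Siglec1 passes only with numbers 1 and 2 alone.

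The genes around Siglece on chromosome 7 were compared next. Within 500 kb, 9 other genes were tested, of which 0 rose and 5 fell, beside 12.0% higher and 14.9% lower over all genes tested (median log2 difference -0.20, against -0.03 over all genes tested). The falls were Cd33, the electron transfer gene Etfb and the tissue kallikrein genes Klk1b11, Klk1b26 and Klk1b27. Etfb went from 26.0 ± 2.10 to 22.5 ± 1.03 FPKM with overlapping groups (SD, n = 4 each, limma adjusted p = 0.0439). Klk1b11 went from 202.6 ± 24.8 to 28.7 ± 6.37 FPKM and Klk1b26 from 3.23 ± 0.609 to 0.713 ± 0.195 FPKM (SD, n = 4 each). The kallikrein genes are near-identical copies among which reads can be shared, so their single values are uncertain. Ctu1, a gene for tRNA modification, was at 4.21 ± 0.182 and 4.92 ± 0.384 FPKM and did not pass (limma adjusted p = 0.0566; 0.0298 with the replicate block).

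The wider pathway was described over 11 lists, of which 84 genes were tested. Of these 20 rose and 21 fell, which is 48.8% against 26.9% of all genes tested. Nothing is read from this share, because the lists were fixed with earlier results of these data known. With the means of pairs of numbers 4 of the 84 genes passed, all of them inhibitory receptor genes (Cd300a, Pilra, Cd72 and Clec4a2). The median log2 difference over the 84 genes was 0.00.

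Genes that build the sialic acid ligands were mostly lower where they passed. Of 10 sialyltransferase genes tested, 2 rose and 6 fell (median -0.26). Over all genes tested, 12.0% were higher and 14.9% lower. Falls numbered 4 with no filter, after trimmed-mean scaling and after quantile normalization, and 7 with the replicate block. They numbered 4 when sample 1, 3 or 4 of si-nc, or sample 2 of si-Suclg2, was left out. Without sample 2 of si-nc, or sample 1 or 4 of si-Suclg2, they numbered 5. St6gal1, which adds sialic acid in the linkage that CD22 binds, was at 14.18, 13.96, 18.62 and 17.62 FPKM with si-nc and at 9.72, 9.94, 10.67 and 10.25 FPKM with si-Suclg2. It fell with no overlap (log2 difference -0.61 ± 0.091 SE; limma adjusted p = 0.00113). St3gal4, a maker of the other common linkage, fell from 7.46 ± 0.559 to 5.29 ± 0.314 FPKM, and St8sia4, a polysialyltransferase, fell from 4.95 ± 0.204 to 3.99 ± 0.226 FPKM (SD, n = 4 each). St3gal6 rose from 1.90 ± 0.192 to 3.56 ± 0.691 FPKM, so enzymes that make the same linkage moved both ways. Of 6 genes of sialic acid synthesis and activation, 0 rose and 2 fell (median -0.01). These were Gne, the first and rate-limiting enzyme, from 6.11 ± 0.285 to 4.94 ± 0.466 FPKM, and Slc35a1, which carries the activated sugar into the Golgi, from 7.09 ± 0.483 to 5.94 ± 0.557 FPKM. The Gne call was lost when sample 2 or 4 of si-nc was left out (limma adjusted p = 0.0538 and 0.0503) and with the means of pairs of numbers (0.219). The Slc35a1 call was lost when any single sample except number 2 of si-Suclg2 was left out (limma adjusted p = 0.0535 to 0.110). That call was also lost with no filter, after trimmed-mean scaling and after quantile normalization. The same held with numbers 1 and 2 alone and with the means of pairs of numbers. The activating enzyme gene Cmas was at 17.3 ± 0.874 and 17.2 ± 1.20 FPKM and did not pass.

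Of 6 tested genes for removal and recycling of sialic acid, 0 rose and 2 fell (median -0.15). Among all genes tested, 12.0% were higher and 14.9% lower. Ctsa, the protective partner of the lysosomal sialidase, fell from 478.8 ± 15.5 to 384.8 ± 19.6 FPKM, and the lysosomal sialic acid exporter gene Slc17a5 from 11.1 ± 0.782 to 9.14 ± 0.088 FPKM (SD, n = 4 each). Neu1, the lysosomal sialidase itself, was at 33.9 ± 1.12 and 32.8 ± 1.76 FPKM and did not pass (limma adjusted p = 0.515). Of the reported Siglec counter-receptors, Cd52 and Spn (CD43) were tested and 0 passed; 1 rose with the replicate block, and both with numbers 1 and 2 alone.

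Src-family kinases phosphorylate ITIMs. Of 8 genes of Src-family kinases and their regulators, 4 rose and 2 fell (median 0.15). The shares over all genes tested were 12.0% higher and 14.9% lower. With the replicate block 4 rose and 3 fell, and with the means of pairs of numbers 0 passed. Lyn was at 115.13, 121.17, 134.63 and 129.66 FPKM with si-nc and at 164.34, 165.32, 177 and 181.25 FPKM with si-Suclg2 (log2 difference 0.46 ± 0.058 SE; limma adjusted p = 0.000463). Fgr rose from 12.8 ± 0.421 to 17.3 ± 0.621 FPKM (SD, n = 4 each). Both kinases are typical of myeloid cells. Csk, the kinase that restrains them, rose from 118.0 ± 1.44 to 138.4 ± 3.91 FPKM. Src and Pag1, the membrane anchor of Csk, were the falls. Among adaptors of activating receptors, the Fc receptor gamma chain gene Fcer1g rose from 2719 ± 234 to 3820 ± 355 FPKM, while Tyrobp, the DAP12 adaptor used by several activating receptors, fell from 1488 ± 90.0 to 1198 ± 78.7 FPKM. Of the 4 adaptor and Syk genes, 1 rose and 1 fell (2 fell with the replicate block or when sample 4 of si-Suclg2 was left out; median -0.16).

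Other negative regulators of the same signals were read as well. Of 9 genes of SHIP phosphatases, SOCS and Dok inhibitors, 5 rose and 2 fell (median 0.17). Over all genes tested, 12.0% were higher and 14.9% lower. Rises numbered 6 with the replicate block and after trimmed-mean scaling. With no filter 4 rose and 2 fell, and after quantile normalization 4 rose and 1 fell. Rises also numbered 4 when sample 1, 2 or 4 of si-nc, or sample 1, 2 or 3 of si-Suclg2, was left out. Socs3, a feedback inhibitor of cytokine signalling, was at 3.02, 3.73, 4.65 and 6.93 FPKM with si-nc and at 13.36, 13.82, 21.6 and 24.13 FPKM with si-Suclg2 (log2 difference 1.79 ± 0.238 SE; limma adjusted p = 0.000588). Socs1 rose from 15.4 ± 1.54 to 23.9 ± 1.05 FPKM, and the docking protein genes Dok3 and Dok2 rose from 29.6 ± 1.91 to 42.4 ± 2.0 FPKM and from 11.9 ± 1.86 to 17.4 ± 0.889 FPKM (SD, n = 4 each). Inpp5d, which encodes SHIP1, was at 73.2 ± 4.54 and 80.9 ± 2.78 FPKM and did not pass (limma adjusted p = 0.0678). Of 7 SHP-2 adaptor genes 0 rose and 1 fell (4 fell with the replicate block, 2 when sample 3 of si-nc or sample 1 of si-Suclg2 was left out; median -0.23). The fall was Irs2, an insulin receptor substrate, from 3.38 ± 0.346 to 1.5 ± 0.370 FPKM.

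Of 16 other protein tyrosine phosphatase genes tested, 1 rose and 3 fell (median 0.04), and with the replicate block 4 rose and 5 fell. Among all genes tested 26.9% were called (12.0% higher and 14.9% lower), and 40.5% with the block. Ptpn1, which encodes PTP1B, rose from 71.7 ± 2.91 to 80.0 ± 0.883 FPKM (SD, n = 4 each). Ptpro fell from 35.1 ± 1.96 to 27.2 ± 0.872 FPKM and Ptprs from 3.11 ± 0.271 to 2.15 ± 0.299 FPKM. Ptpn14 fell from 1.18 ± 0.422 to 0.540 ± 0.235 FPKM with overlapping groups. Its call was lost when sample 1 or 2 of si-nc, or sample 2, 3 or 4 of si-Suclg2, was left out (limma adjusted p = 0.0604 to 0.105). The same call was lost with no filter (limma adjusted p = 0.0605), after quantile normalization (0.0725) and with the means of pairs of numbers (0.277). The rises on this list numbered 4 after trimmed-mean scaling and 2 when sample 1 or 4 of si-nc, or sample 4 of si-Suclg2, was left out. The falls numbered 5 when sample 1 of si-Suclg2 was left out. Ptprc, the leukocyte phosphatase CD45, was at 108.8 ± 14.1 and 118.8 ± 23.2 FPKM and did not pass.

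Of 14 other inhibitory receptor genes tested, 7 rose and 1 fell (median 0.26). Over all genes tested, 12.0% were higher and 14.9% lower. Rises numbered 10 with the replicate block, 8 after trimmed-mean scaling and 6 after quantile normalization, with 1 fall each time. They numbered 5 when sample 1, 2 or 4 of si-nc, or sample 2 or 4 of si-Suclg2, was left out. Without sample 1 or 3 of si-Suclg2 they numbered 6. The list was drawn up for ITIM receptors, but it also holds Lilr4b, a relative without an ITIM, and Slamf1, which has a different tyrosine motif. Lilr4b did not pass (limma adjusted p = 0.0922; 0.000949 with the replicate block), and Slamf1, under 1 FPKM in every sample, was not tested. Clec4a2, an inhibitory lectin of dendritic cells, was at 89.19, 88.05, 96.18 and 100.83 FPKM with si-nc and at 193.35, 201.93, 260.89 and 276.37 FPKM with si-Suclg2 (log2 difference 1.29 ± 0.114 SE; limma adjusted p = 5.46e-05). Pilra, the inhibitory member of a pair of receptors, rose from 28.6 ± 1.29 to 62.5 ± 2.16 FPKM and Cd72, an inhibitory lectin shared with B cells, from 347.9 ± 23.2 to 619.7 ± 28.1 FPKM (SD, n = 4 each). Cd300a, a receptor for lipids of dying cells, was the fall, from 147.1 ± 2.77 to 74.5 ± 1.81 FPKM. Sirpa, the CD47 receptor that also recruits SHP-1, was at 592.2 ± 20 and 592.5 ± 20.6 FPKM and did not pass (limma adjusted p = 0.994; 95% interval of the log2 difference -0.10 to 0.10).

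**Figure D5:**
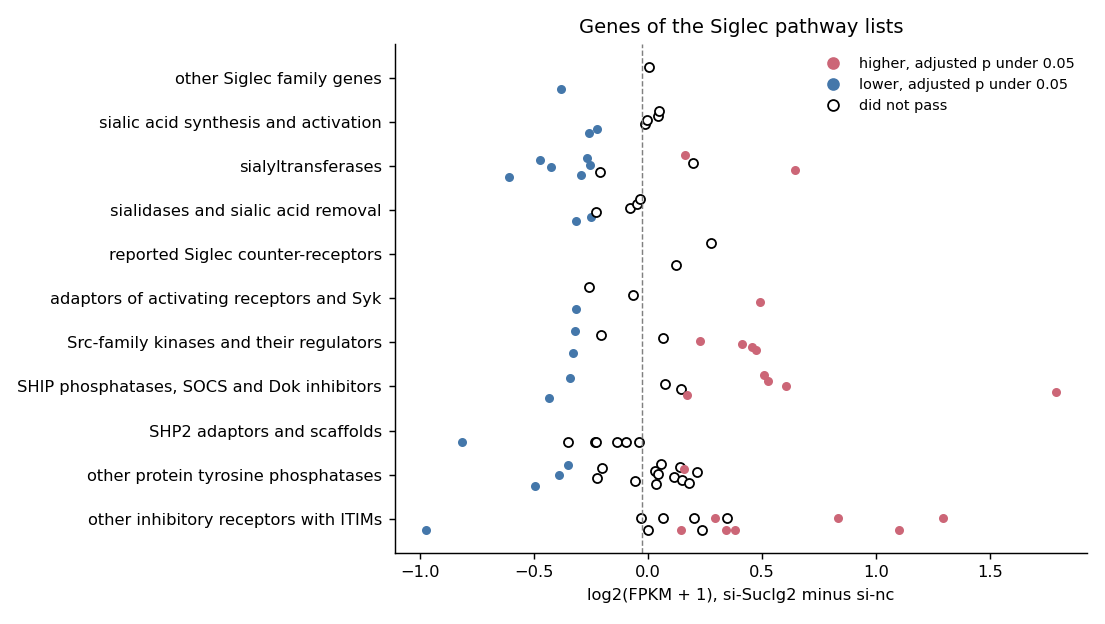
Log2 difference, si-Suclg2 minus si-nc, on the log2(FPKM + 1) scale for each tested gene of the 11 lists (1 point per gene; red higher and blue lower at a limma adjusted p under 0.05, open not passed; dashed line, the median of all genes tested). Sialyltransferases have 2 red and 6 blue points, and the other inhibitory receptors 7 red and 1 blue.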

How the data were processed

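RNA sequencing values of 4 si-nc and 4 si-Suclg2 samples came from a single table of 15465 genes. The authors deposited a value per gene and sample that was taken as FPKM: no unit stands in the header, and the values are not whole and sum to unequal totals. The submitters' processing notes name the builds GRCm38.p4 and mm10; an aligner or counter is not given in the sources used here. DEGseq made the p-values and q-values, and a log2 fold change is deposited beside them, per the file headers.

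Genes with a group mean of at least 1 FPKM were tested with limma 3.58.1 (R 4.3.3), fitting group alone to log2(FPKM + 1) with a trend of variance on mean, and p-values were adjusted by Benjamini-Hochberg over all 10176 genes at 0.05. Alternatives were a pseudocount of 0.1, no filter, trimmed-mean scaling (unweighted mean of log ratios after trimming 30% of ratios and 5% of levels at each end), quantile normalization, the replicate number as a block, each sample left out, each pair of numbers alone and, chosen after seeing the data, means of pairs of numbers. Same-numbered samples deviated together (r of 0.405 to 0.553 across 10176 genes). Number 1 of one group and 2 of the other, and 3 and 4 likewise, did so as closely (r of 0.4365 to 0.558). These correlations therefore cannot show which samples pair within numbers 1 and 2 or within 3 and 4. The blocked fit treated the same numbers as pairs.

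Members and lists were chosen with earlier results of these data known. Genes named are all members, the other Siglec genes, Suclg2, up to 4 passing genes per list with the smallest p, and the 5 genes most like Siglece. A gene that this rule names is not reported here. Other genes named were chosen after their values were seen: Neu1, Cmas, Cd52, Spn, Src, Pag1, Inpp5d, Ptprc, Sirpa, Lilr4b, Slamf1, the markers, and the neighbours of Siglece.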

Additional observations from a re-analysis of the deposited data

Results flagged for a closer look

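Ptprs was flagged because 1 of its samples stood apart from its group. In si-Suclg2 the samples were at 2.32, 2.27, 2.30 and 1.70 FPKM, and the gap below replicate 4 took up 0.919 of the group's range, above Dixon's 95% critical value for groups of 4. Chance gives such a gap in about 1 of 20 groups. Not every gene named was examined in this way. In S100a8, sample 4 of si-nc (1.79 FPKM) also lay apart from samples 1 to 3 (1.02, 1.02 and 0.90 FPKM).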

How the results depend on the processing

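Genes past the threshold numbered 2740, 4126 with the replicate block, 272 with replicate pairs averaged (pair means), and 2127 to 2624 when one sample was left out. The share of higher genes among them was 44.6%, and 56.4% after trimmed-mean scaling. Pathway genes called numbered 41, 4 with pair means and 34 to 40 with one sample left out. The log2 difference of Siglece was 3.34, 3.71 with a pseudocount of 0.1 and 3.23 to 3.45 with one sample left out. That of Cd33 was -0.59 with pair means and no longer passed, and -0.67 to -0.52 with one sample left out. That of Ptpn6 no longer passed after quantile normalization (0.14) or with pair means (0.19). With one sample left out the Ptpn6 difference was 0.15 to 0.22. It did not pass without sample 3 or 4 of si-nc, or without sample 1 or 2 of si-Suclg2. Siglec1 passed with numbers 1 and 2 alone (0.20), turned to -0.048 with numbers 3 and 4 alone, and was 0.03 to 0.13 with one sample left out. Ptpn11 was -0.094 to 5.31e-05 with one sample left out, the last without si-Suclg2 replicate 4. Mag turned to -0.056 with numbers 3 and 4 alone, and was -0.032 to 0.043 with one sample left out. Suclg2 passed under every setting. The block changed no call among the members. The causes were not tested. The low values of Siglec15 and of the marker genes under 1 FPKM are limited by an unknown read depth.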
